A study of Homo sapiens with 24 samples.

Results

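The medium in which T47D cells stood before harvest was compared in cells that received no drug. The comparison holds 8 of the 24 libraries of the series, chosen by their titles: 4 vehicle libraries of complete medium and 4 vehicle libraries of hormone-starved medium. All peaks of the deposited table entered it. T47D, an established human cell line from a luminal breast cancer, carries estrogen receptor. Complete-medium cells (500000 seeded) stood for 1 day in RPMI medium with 10% fetal bovine serum, and starved cells (330000 seeded) for 3 days in RPMI medium without phenol red and with 10% charcoal-stripped serum. Both then received 0.1% DMSO for 1 h. Serum treatment, phenol red, days in culture and cells seeded all changed together and cannot be told apart here. The other 16 libraries came from complete medium with 100 nM fulvestrant, raloxifene or tamoxifen, and from starved medium with 1 nM estradiol, each for 1 h.

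In ATAC-seq the Tn5 transposase inserts sequencing adapters where DNA is not covered by nucleosomes, so the count in a peak follows how accessible the regulatory element is. Charcoal takes steroid hormones and other lipophilic molecules out of serum, and phenol red in the medium is itself weakly estrogenic. The estrogen receptor is a hormone-dependent transcription factor that in luminal breast cells binds mostly at distal enhancers, often with FOXA1 and GATA3. Receptors for progesterone, glucocorticoid, thyroid hormone and retinoic acid belong to the same family and read ligands that charcoal can also remove.

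Total counts were 7117770 to 10225935 per library in complete medium and 9011203, 8400820, 2422981 and 11336954 for starved replicates 1 to 4. Starved replicate 3 was the shallowest, had no count in 12.96% of peaks and stood apart from the other 7 libraries on the first principal component. The vehicle libraries of complete replicates 3 and 4 name fulvestrant in their treatment label and DMSO in title and description, and they were grouped by title. Without both, 8570 peaks were called higher and 9320 lower in complete medium. Whether replicates were separate cultures is not said in the labels. The p-values rest on the spread within the 6 groups of all 24 libraries, which may be technical. In a fit of only the 8 vehicle libraries, 11817 peaks were called higher and 14299 lower. Pearson correlations of log2 CPM among those 8 were 0.810 to 0.936 within groups and 0.782 to 0.889 between them. The strongest peaks at 6 luminal markers (FOXA1, GATA3, KRT8, KRT18, KRT19 and ESR1) summed to 230.0 to 247 CPM (counts after correction for sequencing depth and library composition) in complete and 226 to 246 CPM in starved libraries. Of these peaks only that of KRT18 was called, with 39.3 to 43.1 CPM in complete and 30.6 to 35.7 CPM in starved libraries.  The basal keratin genes KRT5 and KRT14 had no peak. The basal marker TP63 did, and its strongest peak had 20.5 to 26.6 CPM over the 8 libraries.

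Of 156745 peaks with enough counts to test, 12423 (7.93%) were higher and 15537 (9.91%) lower in complete medium (edgeR quasi-likelihood test, Benjamini-Hochberg adjusted p under 0.05). Of these, 1205 higher and 1384 lower peaks changed at least 4-fold, and 170 and 116 at least 8-fold. The 4 libraries of one group all lay on one side of the other 4 in 72.0% of the higher and 63.6% of the lower peaks, against 16.7% of all tested peaks. Peaks called higher held 10.3 to 10.5% of all peak counts in complete libraries and 5.54 to 6.01% in starved ones, and peaks called lower held 6.13 to 6.66% and 10.6 to 12.6%. Calls were most frequent among well-covered peaks short of the top: with peaks ranked by abundance into 10 equal classes, 24.3% of the eighth were called, against 12.2% of the lowest class and 14.2% of the highest.

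**Figure D1:**
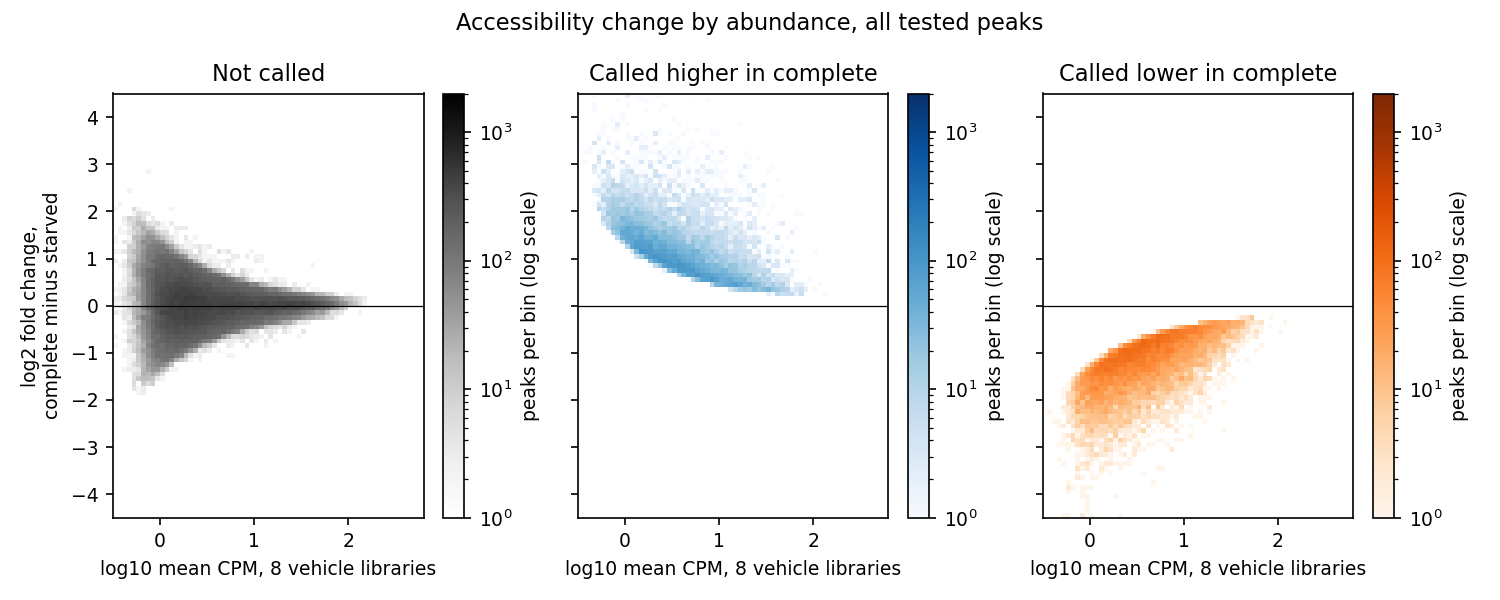
Log2 fold change of each tested peak (complete minus starved) against the log10 of its mean CPM over the 8 vehicle libraries, as binned counts on a log colour scale, in 3 panels for peaks not called, called higher and called lower. The smallest change that was called shrinks as abundance grows, and both directions hold changes of more than 4-fold at low and middle abundance.

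The difference between media lay away from gene starts. Of 8780 tested peaks that overlap the start window of a protein-coding gene (250 bases before to 50 after the start), 2.28% were higher and 1.40% lower in complete medium. Among other peaks inside genes 8.59% were higher and 10.2% lower. Peaks outside genes but within 50 kb of one had 8.59% and 8.61%, and farther peaks 7.26% and 13.2%. Start peaks had a median of 20.01 CPM, against 2.66 CPM for all tested peaks.

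The balance of the calls shifted with distance. Lower peaks made up 35.1% of the calls within 0.15 kb of a start, 45.9% at 5 to 20 kb and 63.4% beyond 100 kb. Chromosomes differed as well. On chromosome 16, 11.4% of peaks were higher and 6.66% lower, and on chromosome 19, 8.46% and 4.75%. On chromosome 13, 5.28% were higher and 13.5% lower, and on chromosome 4, 6.39% and 12.6%. Called peaks also had neighbours of the same direction. Of 965 pairs of adjacent tested peaks less than 1 kb apart with both called, 94.7% changed the same way. The share was 76.7% at 5 to 20 kb, 71.1% at 20 to 100 kb and 75.9% beyond 100 kb (112 pairs). For any pair of called peaks, 50.6% was calculated from the shares of higher and lower calls.

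**Figure D2:**
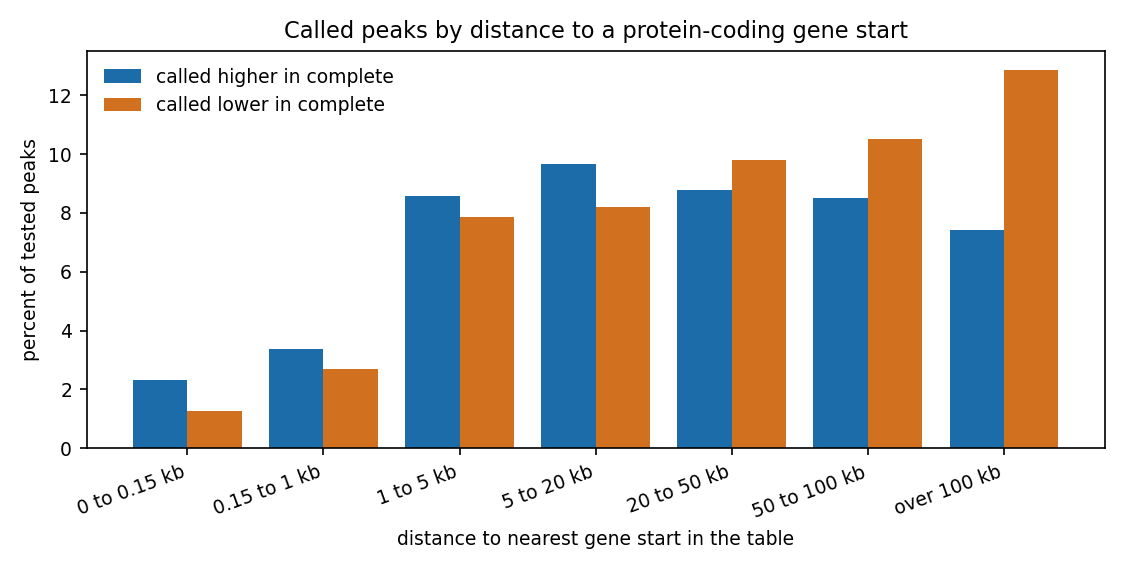
Percent of tested peaks called higher (blue) and lower (orange) in complete medium, by distance from the peak to the nearest protein-coding gene start in the table. Both bars are lowest within 0.15 kb (2.32% and 1.26%), and the orange bar is tallest beyond 100 kb (12.9%).

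The start windows that did change are shown with their sequence, since they are the called elements whose gene assignment is closest. Each line gives the 250 bases before the start, 5′ to 3′ on the gene's strand, from RefSeq on GRCh38.p14. Capitals mark matches on either strand to a list of 13 short motifs, of which these windows hold the GATA site AGATAA, AP-1 (TGANTCA), RUNX (TGTGGTT), TFAP2 (GCCNNNGGC), E2F (TTTCCCGC), TEAD (ACATTCC), forkhead (TGTTTAC) and glucocorticoid or progesterone response element (ACANNNTGT) matches. The first 3 windows were higher and the last 3 lower in complete medium. Of the falls not shown, TMC3, MUC19, PNPLA2, HTR3D and HAL held no match. Of the rises not shown, HIVEP3, TCAF1 and LOC124900646 held none.
PDZK1, chr1:145707369-145707618, minus strand, no match: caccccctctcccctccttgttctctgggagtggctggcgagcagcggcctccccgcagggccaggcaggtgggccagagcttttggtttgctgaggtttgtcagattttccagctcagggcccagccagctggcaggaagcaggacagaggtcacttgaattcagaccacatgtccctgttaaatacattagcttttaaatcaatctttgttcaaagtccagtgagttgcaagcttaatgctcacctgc
UHRF1, chr19:4909251-4909500, plus strand, TFAP2 and E2F: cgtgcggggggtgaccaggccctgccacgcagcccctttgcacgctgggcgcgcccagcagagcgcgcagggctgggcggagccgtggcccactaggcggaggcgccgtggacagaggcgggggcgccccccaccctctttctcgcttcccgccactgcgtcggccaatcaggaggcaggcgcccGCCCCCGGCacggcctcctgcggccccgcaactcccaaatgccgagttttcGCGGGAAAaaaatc
KCNMA1, chr10:77350762-77351011, minus strand, GATA, AP-1, AP-1 and RUNX: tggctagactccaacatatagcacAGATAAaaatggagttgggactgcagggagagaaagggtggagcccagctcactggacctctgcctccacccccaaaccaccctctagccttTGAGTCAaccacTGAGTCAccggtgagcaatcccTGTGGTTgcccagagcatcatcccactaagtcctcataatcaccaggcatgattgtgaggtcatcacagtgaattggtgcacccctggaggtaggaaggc
OR2F2, chr7:143934983-143935232, plus strand, glucocorticoid or progesterone element, GATA, TEAD and AP-1: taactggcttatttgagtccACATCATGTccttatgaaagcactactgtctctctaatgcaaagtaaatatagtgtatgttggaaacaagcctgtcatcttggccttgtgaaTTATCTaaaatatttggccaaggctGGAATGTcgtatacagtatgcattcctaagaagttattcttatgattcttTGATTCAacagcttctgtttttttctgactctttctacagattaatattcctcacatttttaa
PLAC1, chrX:134658472-134658721, minus strand, forkhead: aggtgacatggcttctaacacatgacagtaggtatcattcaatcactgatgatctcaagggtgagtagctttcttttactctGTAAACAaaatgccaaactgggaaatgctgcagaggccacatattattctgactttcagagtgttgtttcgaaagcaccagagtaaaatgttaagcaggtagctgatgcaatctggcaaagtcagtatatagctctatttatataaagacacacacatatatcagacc
KCNJ13, chr2:232776566-232776815, minus strand, TEAD: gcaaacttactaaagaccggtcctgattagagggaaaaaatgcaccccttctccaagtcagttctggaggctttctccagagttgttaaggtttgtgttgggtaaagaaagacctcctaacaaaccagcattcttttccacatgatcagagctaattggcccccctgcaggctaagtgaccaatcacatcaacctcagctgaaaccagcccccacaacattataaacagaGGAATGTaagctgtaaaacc

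These windows differed in composition. UHRF1 had 73.2% G or C and the other higher windows shown 53.6 to 54.0%, while the lower windows shown had 34.0% (OR2F2), 38.8% (PLAC1) and 45.2% (KCNJ13). Over the 10 largest rises and 10 largest falls at starts the ranges overlapped, from 35.2% (HIVEP3) to 73.2% and from 34.0% to 58.4% (PNPLA2). Over all 9307 start windows with a tested peak the median GC content of the 300 bases was 66.0%, over the 208 with a higher peak 62.0%, and over the 125 with a lower peak 51.7%. The median number of CpG dinucleotides was 27, 15.5 and 6.

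Some motif matches were most frequent in the lower windows. A GATA match was in 4.29% of all windows with a tested peak, in 3.37% of those with a higher peak and in 18.4% of those with a lower peak. TEAD matches were in 2.12%, 2.404% and 11.2%, forkhead matches in 2.22%, 2.404% and 7.20%, and AP-1 matches in 4.21%, 8.65% and 11.2%. The GC-rich TFAP2 match went the other way, with 33.4%, 28.9% and 12.8%, as did the SP1 match (GGGGCGGGG), with 29.1%, 28.4% and 9.60%. RUNX matches were in 2.87%, 6.25% and 4.80%, and cAMP response elements (TGACGTCA) in 3.49%, 3.85% and 2.4%. Strict matches to the palindromic estrogen response element were in 1 of the 9307 windows and in none of the called ones. The shares and the base composition moved together, and their separate parts were not tested. A match describes letters in the window and shows no binding.

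PDZK1 encodes a scaffold protein with PDZ domains and is a known estrogen-induced gene. Its start peak (chr1:145707496-145707728) had 13.6, 11.8, 14.4 and 15.9 CPM in complete replicates 1 to 4 and 3.803, 3.73, 4.41 and 4.46 CPM in starved replicates 1 to 4. Every complete library lay above every starved one, by 1.77 on the log2 scale (SE 0.20; adjusted p = 2.5e-11, edgeR). UHRF1, which binds hemimethylated DNA and maintains DNA methylation in dividing cells, had 7.14, 8.06, 9.05 and 8.47 CPM against 3.57, 2.36, 4.01 and 3.09 CPM at its start (chr19:4909228-4909428), which also lies within ARRDC5. The groups did not overlap (1.39, SE 0.22). At the start of BPIFB1, a secreted protein of mucosal epithelia (chr20:33282992-33283238), complete libraries had 9.51, 7.15, 7.41 and 8.17 CPM and starved ones 2.07, 1.99, 2.00 and 1.46 CPM. That was the largest rise among called start peaks above median abundance whose groups did not overlap (2.14, SE 0.27). KCNMA1, a large-conductance potassium channel, and NHLH1, a neuronal helix-loop-helix factor, were also among the 10 largest, with 1.34 (SE 0.30) and 1.55 (SE 0.27).

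OR2F2, an olfactory receptor gene, had the largest fall among called start peaks above median abundance whose groups did not overlap. Its peak (chr7:143934928-143935284) had 1.08, 0.65, 1.65 and 0.438 CPM in complete medium and 12.9, 12.6, 6.01 and 10.0 CPM in starved medium. The groups were far apart, with the lowest starved value in the shallow replicate 3 (-3.44, SE 0.30; adjusted p = 2.49e-14, edgeR). PNPLA2, the adipose triglyceride lipase that starts the breakdown of stored fat, had 4.32, 4.94, 4.73 and 4.52 CPM at its start (chr11:818811-819011) in complete medium. In starved medium it had 11.9, 13.7, 10.4 and 9.83 CPM, again with no overlap (-1.31, SE 0.19). PLAC1, a placental membrane protein re-expressed in breast cancers, had 3.14, 4.03, 4.12 and 3.50 CPM against 10.3, 12.6, 9.22 and 8.28 CPM (chrX:134658312-134658579). Its log2 fold change was -1.44 (SE 0.20), and the start peak of KCNJ13, an inward rectifier potassium channel whose start lies within GIGYF2, fell by 1.18 (SE 0.19). TMC3 (-1.42), the mucin MUC19 (-1.32) and PAMR1 (-1.23) were also among the 10 largest falls.

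**Figure D3:**
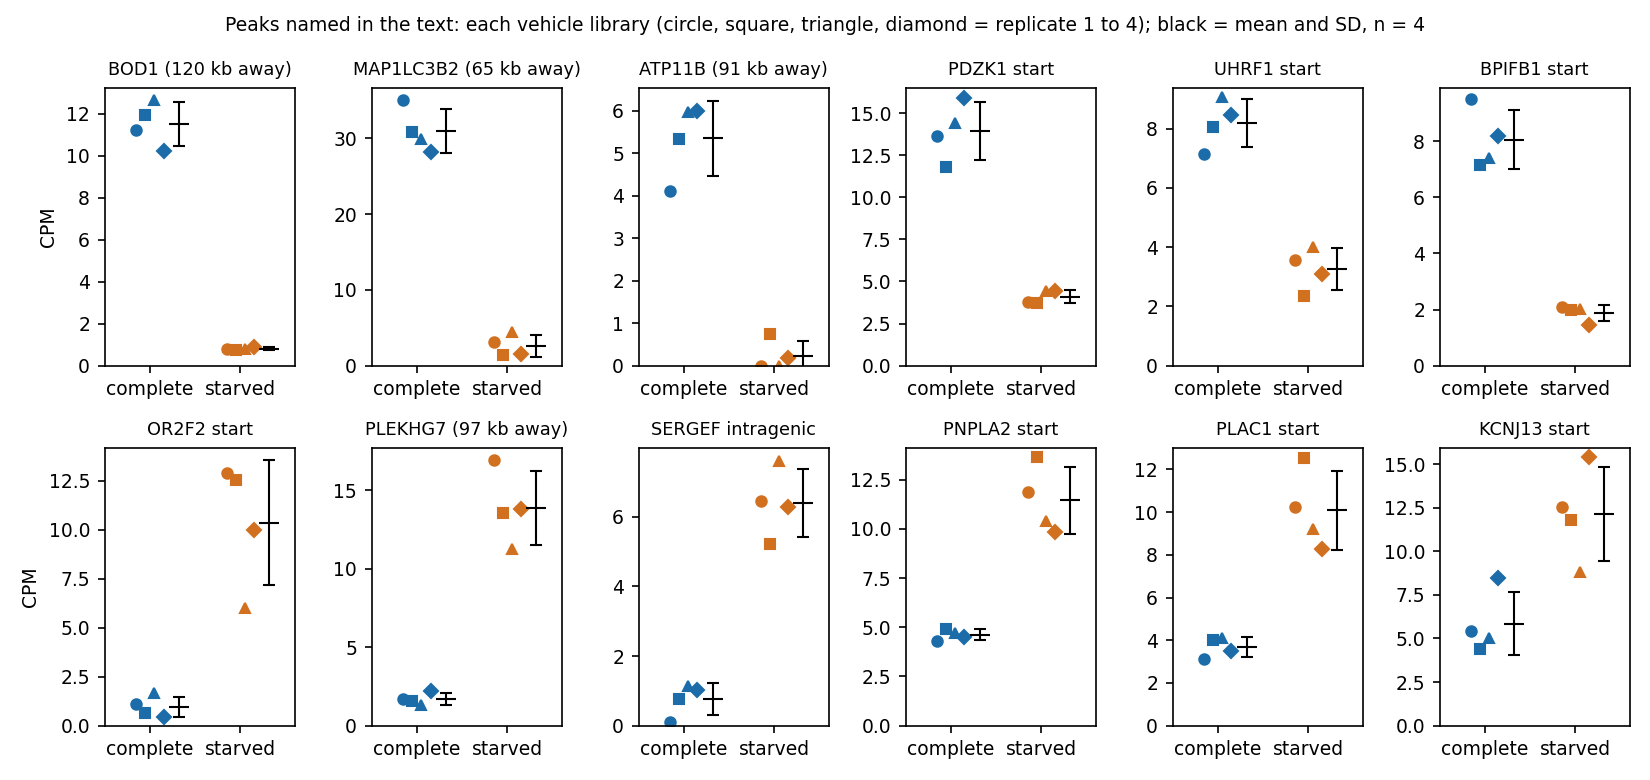
CPM (linear axes from 0) of 12 peaks named in the text in each of the 8 vehicle libraries, complete in blue and starved in orange, with the mean and SD (n = 4) in black. The top row shows peaks higher in complete medium and the bottom row peaks lower, and in each panel the groups do not overlap.

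The largest rises among peaks above the median abundance were mostly far from genes. A peak 120 kb from BOD1, which encodes a chromosome biorientation protein (chr5:173487288-173487529), had 11.2, 11.96, 12.7 and 10.2 CPM in complete and 0.807, 0.746, 0.802 and 0.910 CPM in starved libraries. The spread within each group was small beside the gap (log2 fold change 3.78, SE 0.30). A peak 64.97 kb from the autophagy gene MAP1LC3B2 (chr12:116494308-116494515) was the strongest of this group, with 35.03, 30.8, 29.9 and 28.2 CPM against 3.11, 1.37, 4.41 and 1.55 CPM (3.82, SE 0.34). A peak 91 kb from the flippase gene ATP11B (chr3:182702338-182702672) had 4.11, 5.33, 5.97 and 5.98 CPM, while starved replicates 1 and 3 had no count and replicates 2 and 4 had 0.746 and 0.182 CPM. Its fitted log2 fold change was 4.25 (SE 0.45).

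On the other side, a peak 96.8 kb from PLEKHG7 (chr12:92606093-92606293) had 1.73, 1.56, 1.34 and 2.19 CPM in complete and 16.9, 13.6, 11.2 and 13.8 CPM in starved libraries. The lowest starved library was still above the highest complete one by a wide margin (-3.09, SE 0.23), and the start of the same gene also fell (-1.19, SE 0.23). Within SERGEF, named for its guanine nucleotide exchange factor domain, a peak (chr11:17898135-17898369) had 0.108, 0.780, 1.13 and 1.02 CPM against 6.45, 5.22, 7.62 and 6.28 CPM (-3.02, SE 0.33). A peak within the adhesion receptor gene ADGRV1 fell by 3.00 (SE 0.24), and one 563 kb from the potassium channel subunit gene KCNMB2 fell by 3.05 (SE 0.27).

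Libraries outside the vehicle comparison were used to ask whether the same peaks differ between media when a ligand was also added. The mean of the 3 antagonist groups in complete medium was compared with estradiol-treated starved cells, which shares no library with the vehicle comparison but differs in ligand as well as medium. Over all tested peaks, 15965 (10.2%) were higher and 21814 (13.9%) lower in that contrast (edgeR). Of the peaks called lower in complete medium with vehicle, 98.7% had the same sign there, 77.9% were called lower and 0 were called higher (3 at an unadjusted p under 0.05). Of the peaks called higher, 92.7% had the same sign, 59.8% were called higher and 188 were called lower. All tested peaks had a positive sign in 51.5%. With raloxifene and tamoxifen alone as antagonists, an alternative added after the data were seen because 1 fulvestrant library is shallow, the same signs were 92.9% for higher and 98.4% for lower peaks. The median log2 fold change of higher peaks was 1.12 with vehicle and 0.66 in this contrast, and that of lower peaks -1.14 and -0.89.

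**Figure D4:**
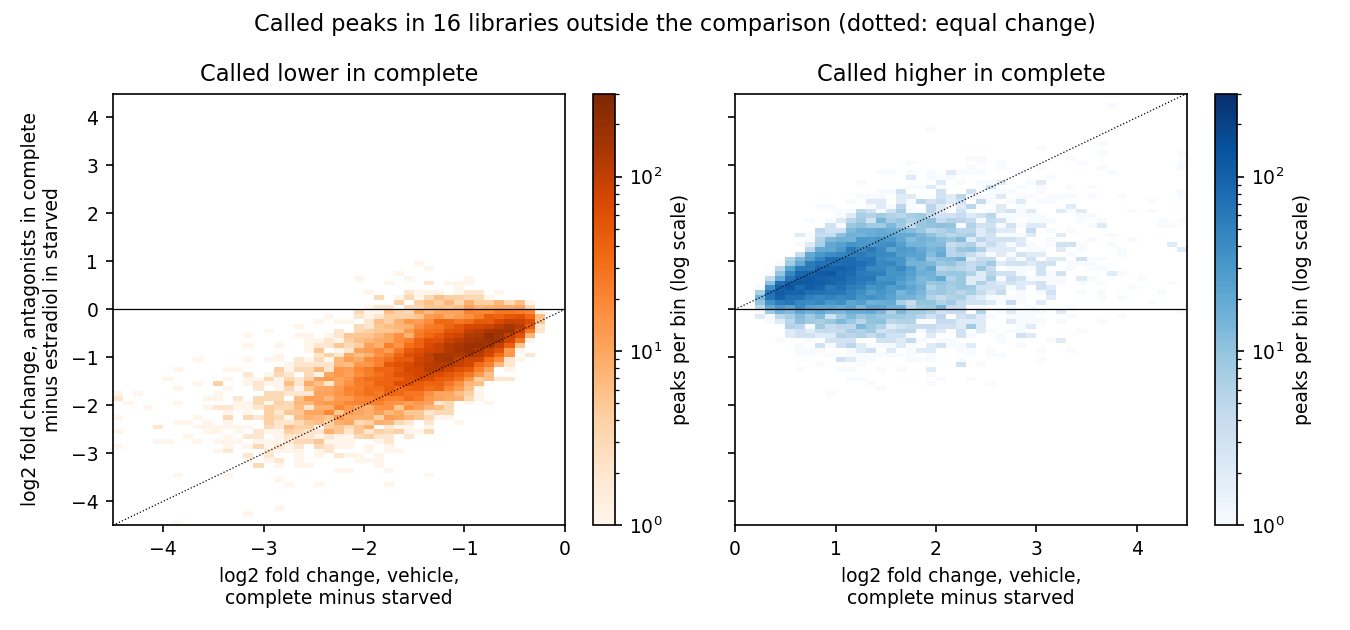
Log2 fold change of called peaks with vehicle (x axis, complete minus starved) against that in the 16 other libraries (y axis, antagonists in complete minus estradiol in starved), as binned counts on a log colour scale. Peaks called lower lie below 0 in 98.7% of cases, while 7.25% of the peaks called higher lie below 0.

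Single peaks differed widely in these libraries. The BOD1 peak had 0.469 ± 0.314 CPM (SD, n = 4) with estradiol in starved medium and 11.6 ± 1.10 CPM with raloxifene in complete medium, a log2 fold change of 4.28 in the outside contrast. The PDZK1 start peak likewise had 3.55 ± 1.44 CPM with estradiol and 14.7 ± 2.4 CPM with raloxifene (1.83). By contrast, a peak 127 kb from KCNU1 (chr8:37063330-37063605) had 3.46, 5.72, 2.98 and 5.55 CPM in complete vehicle libraries and a single count among all 4 starved ones, but 3.86 ± 0.654 CPM with estradiol. Its outside log2 fold change was -0.09, and that of the peak within the immune checkpoint gene CD276 was 0.27 (edgeR adjusted p = 0.34). The MAP1LC3B2 peak lay between, with 13.2 ± 1.50 CPM with estradiol, against 2.61 ± 1.43 CPM in starved vehicle and 31.0 ± 2.91 CPM in complete vehicle cells (1.12). The 10 largest falls above median abundance all had negative values there, from -2.97 to -1.82, as did the 10 largest at starts, from -2.79 to -0.81. The starved vehicle group is also the control of the estradiol group, so the levels of these groups are given side by side without a test between them.

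Counts were also summed per gene, over all peaks in the gene interval and 10 kb on either side. Of 18682 genes tested, 1481 (7.93%) were higher and 1156 (6.19%) lower in complete medium (edgeR, adjusted p under 0.05). Without complete replicates 3 and 4 the counts were 766 and 692. With scaling factors taken from the gene sums themselves they were 1520 and 1845, so that falls were 54.8% of the calls instead of 43.8%. The median log2 fold change over all genes was 0.036 in the reported fit and 0.0037 to 0.0301 in the other scalings tried. Summed changes were smaller than those of single peaks, with medians of 0.37 among the higher and -0.38 among the lower genes. The medians of called peaks were 1.12 and -1.14, and the reason for the difference was not tested. Neighbouring genes share peaks.

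GREB1, an estrogen-induced cofactor of the receptor, had 32 of 57 peaks higher and 3 lower. Its sum (chr2:11482888-11642788) was 393, 388, 339 and 347 CPM in complete and 145, 152, 162 and 166 CPM in starved libraries (log2 fold change 1.23, SE 0.12). GATA4, a transcription factor of heart and endoderm, had 13 of 17 peaks higher and summed to 143, 134, 140 and 136 CPM against 53.4, 56.6, 56.9 and 57.6 CPM (1.31, SE 0.13). The groups were far apart for both. WT1, a transcription factor of kidney and gonad, rose from 53.6 ± 2.03 to 128 ± 2.60 CPM (SD, n = 4; 1.25, SE 0.08) with 3 of 5 peaks higher. AFF3, a nuclear protein of transcription elongation complexes, had 21 of 49 peaks higher and a sum of 360 ± 14.0 against 177 ± 15.4 CPM (1.01, SE 0.08).

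Other large rises were at MAG, a myelin glycoprotein (1.34, SE 0.24), NYAP2 (1.22, SE 0.11) and the glucose transporter gene SLC2A10 (1.09, SE 0.09). TRPC6 (1.23, SE 0.10) passed only through its flank: 1 of its 5 tested peaks was called, and with no flank its sum changed by -0.08. By the excess of higher over lower peaks GSE1 led, a coiled-coil protein found with histone demethylase complexes, with 47 of 132 peaks higher and 2 lower. Its sum rose from 1944 ± 109 to 2593 ± 19.7 CPM (0.42, SE 0.08). ZMIZ1, a transcriptional coactivator, had 16 of 58 peaks higher and none lower (0.37, SE 0.07), and FSIP1 15 of 33 (0.69, SE 0.07).

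On the lower side, PAPPA, a metalloprotease that cleaves IGF-binding proteins, had 12 of 27 peaks lower and summed to 51.8, 55.8, 46.4 and 56.5 CPM in complete and 105, 104, 95.4 and 94.1 CPM in starved libraries (-0.94, SE 0.08). No complete library came near a starved one. ATXN10 had 6 of 11 peaks lower (-0.95, SE 0.09), the atypical kinase gene MAPK4 8 of 12 (-0.93, SE 0.11) and ANXA1, the annexin that mediates glucocorticoid effects, 3 of 6 (-1.10, SE 0.16). FMO2 (-1.0) and PNLIPRP3 (-1.14) lost their call with no flank. The synaptic adhesion gene NLGN1 had 18 of 62 peaks lower and none higher (-0.58, SE 0.06), and the Notch coactivator MAML2 18 of 49 (-0.33, SE 0.06). HDAC9, a class IIa histone deacetylase, had 20 of 61 lower and 3 higher (-0.44, SE 0.07), MACROD2 23 of 70 and 2 (-0.43, SE 0.07), and MECOM 19 of 76 and 1 (-0.30, SE 0.06). For DLG2 and RAD51B, which had 21 lower peaks each, the sums did not pass the test (adjusted p = 0.0506 and 0.083, edgeR).

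Among 16 hormone receptor genes, 5 were higher and 3 lower in complete medium, beside 7.93% and 6.19% of all genes. Without complete replicates 3 and 4 the counts were 3 and 2, and 3 were also higher without complete replicate 1 or starved replicate 2. PGR, the progesterone receptor gene and itself an estrogen target, led with 19 of 40 peaks higher and none lower. Its sum was 186, 205, 200 and 193 CPM in complete and 109, 115, 115 and 125 CPM in starved libraries, so the groups were well apart (0.75, SE 0.07, edgeR adjusted p = 1.28e-12). RARA, the retinoic acid receptor alpha, rose by 0.41 (SE 0.08). One intragenic RARA peak (chr17:40322369-40322630) went from 28.6, 24.1, 38.5 and 33.3 CPM in starved to 96.9, 86.0, 87.1 and 86.8 CPM in complete libraries (1.57, SE 0.11). ESR2 (0.36), RXRG (0.32) and RARG (0.22) were the other rises, of which RXRG lost its call in 6 of 22 alternatives and RARG in 9 of 23.

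The glucocorticoid receptor gene NR3C1 fell, with 47.4, 56.7, 50.0 and 51.1 CPM in complete and 67.0, 74.6, 65.8 and 66.0 CPM in starved libraries (-0.42, SE 0.08). RARB, the retinoic acid receptor beta, had 12 of 51 peaks lower (-0.37, SE 0.07) and THRB, the thyroid hormone receptor beta, 9 of 34 (-0.25, SE 0.07). The sum of ESR1, the estrogen receptor gene, was 0.19 higher (SE 0.07, edgeR adjusted p = 0.0512) with 7 of its 49 peaks higher and 3 lower, and it was called in 10 of 23 alternatives, DESeq2 among them. A peak 4.18 kb outside its interval (chr6:151652346-151652644) rose, with 18.5, 18.1, 23.0 and 20.3 against 8.41, 10.3, 5.21 and 10.1 CPM (1.12, SE 0.16).

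Of 25 estrogen-induced genes, 19 were higher and 0 lower, beside 7.93% and 6.19% of all genes (edgeR; 0 lower also at an unadjusted p under 0.05 and 0 with DESeq2), with a median log2 fold change of 0.34 beside 0.04 over all genes. That list was also in view from earlier results of these data, so its direction is no independent evidence. Without complete replicates 3 and 4, 14 were higher. Of the peaks of these genes 34.0% were higher and 4.33% lower. IGFBP4, a binding protein of insulin-like growth factors, had 120, 99.7, 97.5 and 83.6 CPM against 48.3, 50.8, 54.5 and 51.7 CPM (0.99, SE 0.12). The proto-oncogene MYB rose by 0.91 (SE 0.10), the secreted glycoprotein gene STC2 by 0.88 (SE 0.14), TFF3 by 0.66 (SE 0.12) and the carbonic anhydrase gene CA12 by 0.63 (SE 0.08). TFF1 (0.23, SE 0.19) and CCND1 (0.10, SE 0.07) did not pass the test.

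Single peaks of these genes took different values in the outside libraries. The strongest-called IGFBP4 peak (chr17:40448739-40449066) had 55.1, 37.6, 42.3 and 37.5 CPM in complete and 8.87, 10.8, 9.62 and 10.6 CPM in starved vehicle libraries, and 37.8 ± 7.00 CPM with estradiol. A MYB intragenic peak (chr6:135211312-135211578) rose from 3.08 ± 0.564 to 11.8 ± 1.52 CPM, and had 10.6 ± 1.08 CPM with estradiol. A peak 8.46 kb from XBP1 (chr22:28808872-28809176) had 10.7, 12.6, 11.5 and 14.3 CPM against 1.27, 4.72, 1.604 and 1.18 CPM, but 2.88 ± 1.12 CPM with estradiol. The estradiol level was thus near complete medium for IGFBP4 and MYB and near starved medium for XBP1.

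Of 20 luminal lineage genes 6 were higher and 0 lower, beside 7.93% and 6.19% of all genes (edgeR; 8 and 0 at an unadjusted p under 0.05, 5 and 0 with DESeq2). Without complete replicates 3 and 4, 2 were higher. MLPH, a melanophilin of vesicle transport, led (0.58, SE 0.07, 6 of 19 peaks higher), followed by AGR3 (0.36) and EHF (0.27). The lineage factors FOXA1 (0.14, adjusted p = 0.29) and SPDEF (0.25, adjusted p = 0.063) did not pass the test in edgeR, and GATA3 (0.25, SE 0.08), which did, lost its call in 12 of 23 alternatives.

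Of 17 genes responsive to thyroid hormone, retinoids or vitamin D, 4 were higher and 1 lower, beside 7.93% and 6.19% of all genes. The share lower is near that of all genes. Without starved replicate 1, 2 were higher. THRSP, a thyroid-responsive regulator of fat synthesis, had 15.7, 16.1, 18.6 and 18.2 CPM in complete and 8.76, 10.8, 13.6 and 11.6 CPM in starved libraries. The groups did not overlap (0.68, SE 0.15), and the call was lost with no flank. HR, the corepressor hairless, rose by 0.47 (SE 0.08) with 6 of 10 peaks higher, while the retinoic acid hydroxylase gene CYP26A1 had -0.26 (SE 0.09, edgeR adjusted p = 0.0418) and lost its call in 14 of 22 alternatives. Androgen-responsive genes split, with 3 of 14 higher and 3 lower: AZGP1 (0.74, SE 0.11) and PIP (0.66, SE 0.10), both secreted proteins of apocrine breast cells, rose but lost their calls with no flank, and ALDH1A3 (-0.54, SE 0.08) and TRPM8 (-0.36, SE 0.10) fell. Of 16 glucocorticoid and progestin-responsive genes 3 were higher, FKBP5, ZBTB16 and MT2A, and 2 lower, ERRFI1 and F3.

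The Hippo pathway restrains the coactivators YAP1 and TAZ, which bind TEAD factors, when cells are dense. Of 20 Hippo pathway genes 4 were lower and 0 higher in complete medium, beside 6.19% and 7.93% of all genes (edgeR; at an unadjusted p under 0.05, 7 and 0; with DESeq2, 7 and 0), with 15.9% of their peaks lower beside 9.91% of all peaks. VGLL1, a TEAD cofactor, had 7.35, 6.89, 3.91 and 5.25 CPM in complete and 12.1, 11.4, 12.4 and 11.3 CPM in starved libraries (-1.0, SE 0.18). The targets ANKRD1 (-0.55, SE 0.11) and CCN2 (-0.49, SE 0.14) and the coactivator YAP1 (-0.35, SE 0.08) also fell, although the groups overlapped for CCN2. Without complete replicates 3 and 4, 3 members were lower, and with scaling factors from the gene sums 7 were. With no flank 2 members were higher.

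Growth factor and signalling genes moved both ways, with counts to be read against 7.93% higher and 6.19% lower over all genes. Of 21 ERBB and FGF receptor genes, FGFR4 (0.63, SE 0.13), ERBB4 (0.49, SE 0.07) and EGFR (0.35, SE 0.07) rose and the ligand gene NRG1 (-0.44, SE 0.09), ERBB2 (-0.20, SE 0.07) and GAB2 (-0.20) fell. ERBB2 lost its call in 11 of 23 alternatives. An ERBB4 intragenic peak (chr2:211435238-211435609) had 27.0, 23.8, 25.2 and 25.7 CPM against 6.34, 4.48, 4.81 and 7.01 CPM (2.10, SE 0.17), one of the clearest single differences among receptor genes. Of 22 TGF-beta and BMP genes 4 rose and 5 fell. The ligand gene TGFB2 (-0.43, SE 0.10) and its effector SMAD3 (-0.34, SE 0.07) were among the falls. At the TGFB2 start (chr1:218345075-218345275) complete libraries had 6.05, 9.23, 5.87 and 7.59 CPM and starved ones 16.8, 18.0, 20.8 and 11.9 CPM. The BMP ligand gene BMP7 and the corepressor TGIF2 (0.30, SE 0.09) were among the rises, and without complete replicates 3 and 4 only 1 rise and 3 falls were called. Leaving out complete replicate 3 or starved replicate 1 or 4 left 1 or 2 rises. Of 24 Wnt and Notch genes 3 rose, NOTCH3 (0.34), JAG2 (0.32) and NRARP (0.31), and 2 fell.

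Most lists of growth and metabolism held few calls, to be read against 7.93% higher and 6.19% lower over all genes. Of 23 replication and cell cycle genes 3 were higher and 0 lower (edgeR; 5 and 0 at an unadjusted p under 0.05, 3 and 0 with DESeq2): E2F2 (0.56, SE 0.09), the licensing factor CDT1 (0.36, SE 0.07) and TOP2A (0.33, SE 0.08). The list median was 0.12. Of 18 immediate early genes 0 passed the edgeR test in either direction, with 1 higher and 2 lower at an unadjusted p under 0.05 and 0 and 1 with DESeq2. Of 23 sterol and fatty acid genes 0 passed it, with 1 higher and 1 lower at an unadjusted p under 0.05 and 0 and 2 with DESeq2. With 50 kb flanks 6 of them were higher. Of 19 autophagy and lysosome genes 4 rose, WIPI1 most (0.47, SE 0.07), and 3 fell, BECN1 most (-0.60, SE 0.08). The BECN1 fall came from 1 of its 4 peaks, which lies within the neighbour gene CNTD1 (chr17:42804976-42805349) and had 34.2, 33.1, 32 and 24.2 against 70.5, 75.3, 51.7 and 71.0 CPM. PFKFB3, which makes the activator of phosphofructokinase, had 15 of 35 peaks higher (0.39, SE 0.08) and was the 1 gene called among 18 hypoxia and glycolysis genes. Of 16 housekeeping genes 1 was higher, EEF1A1 (0.31, SE 0.09).

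The remaining lists are to be read against the same shares, 7.93% higher and 6.19% lower over all genes. Of 17 oxidative stress and xenobiotic genes 3 were lower, the efflux pump genes ABCC1 (-0.43, SE 0.09) and ABCC2 and the cystine transporter gene SLC7A11 (-0.38, SE 0.11), and 0 higher (edgeR; 2 at an unadjusted p under 0.05, 0 with DESeq2). Of 18 coregulator and chromatin genes 2 were higher, the insulator protein gene CTCF (0.29, SE 0.08) and the remodeller ATPase gene SMARCA4 (0.28, SE 0.09), which lost its call in 14 of 23 alternatives. Of 19 basal, progenitor and mesenchymal genes EGFR was higher, and KRT17 (-0.25, SE 0.09) and TP63 (-0.20, SE 0.07) were lower. KRT17 lost its call in 9 of 23 alternatives and TP63 in 10 of 23. With 50 kb flanks KRT17 and TP63 took the values 0.03 and 0.05. TSC2 was the 1 gene higher among 21 of insulin, IGF and PI3-kinase signalling, CDKN1C and PDCD4 were higher among 22 of growth arrest and stress, and EPCAM among 23 of adhesion and matrix.

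**Figure D5:**
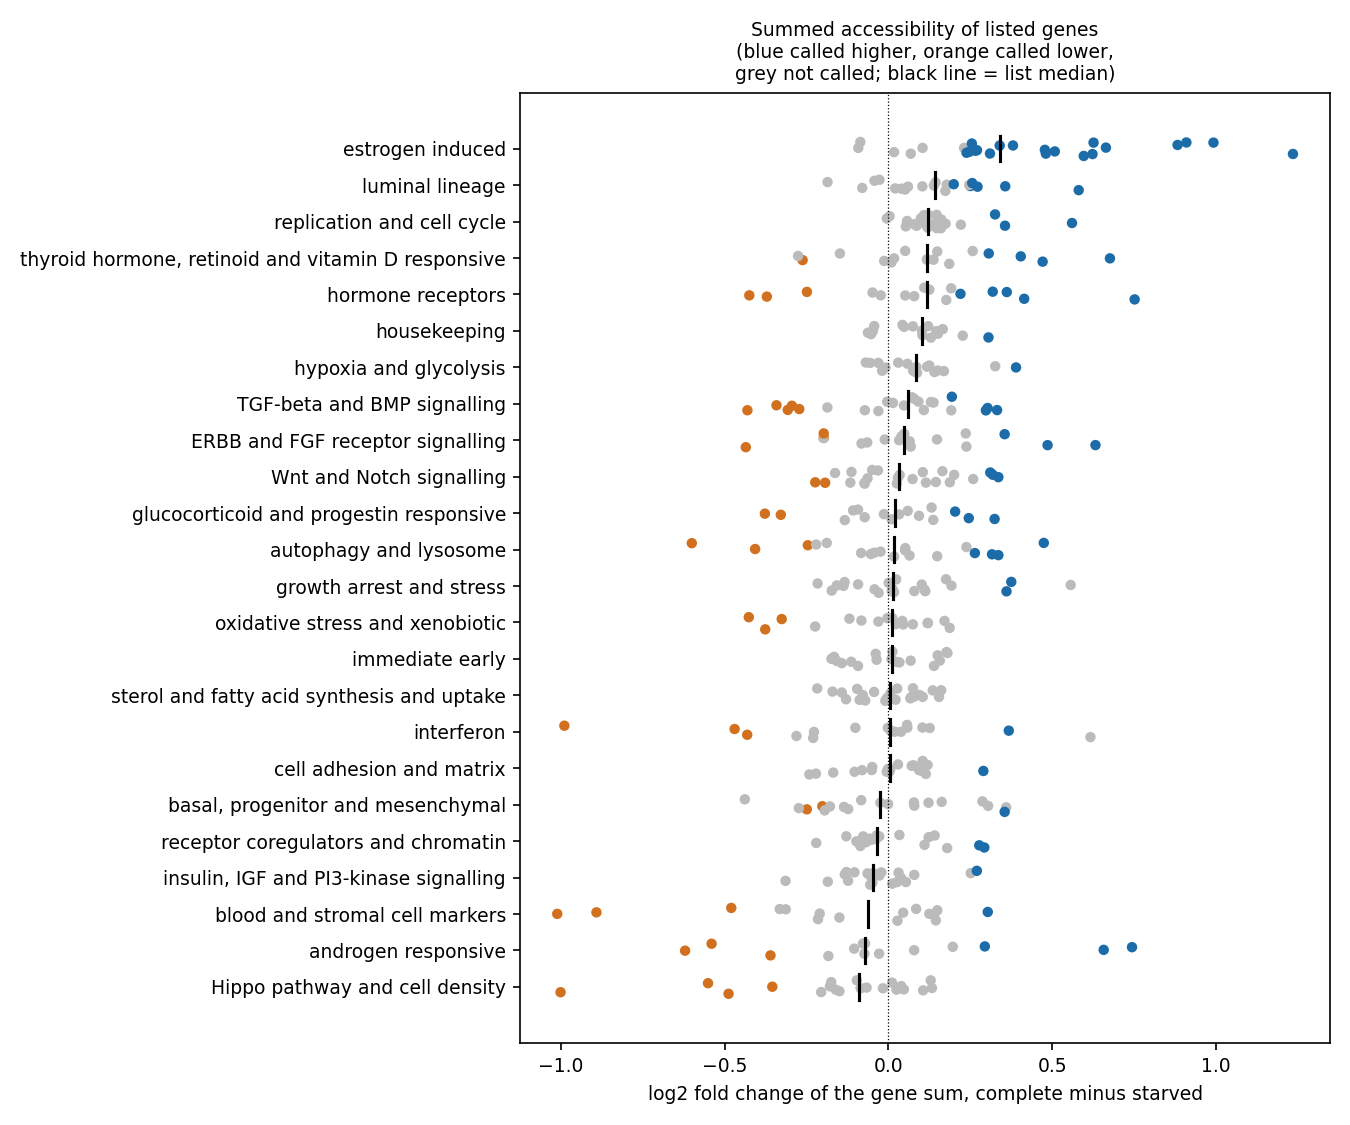
Log2 fold change of the summed accessibility (complete minus starved) of each gene in 24 lists, blue where called higher, orange where called lower and grey where not called, with the list median as a black line. The estrogen-induced list has the highest median (0.34) and the Hippo pathway list the lowest (-0.09).

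The strongest peak of the collagen gene COL1A1 had 35.5 to 45.1 CPM over the 8 libraries and that of the T cell gene CD3E 14.4 to 34.2 CPM, beside 25.2 to 34.8 CPM for FOXA1, and their part in the results was not tested. The strongest peaks at COL1A1, COL1A2 and PDGFRB summed to 59.99 to 68.9 CPM in complete and 50.5 to 67.4 CPM in starved libraries. Of 16 blood and stromal marker genes 3 were lower in complete medium, PTPRC (-0.89, SE 0.14), CD3E and COL3A1, and SPI1 was higher. The strongest peaks at the blood markers PTPRC and CD3E summed to 16.6 to 19.4 CPM in complete and 22.9 to 40.4 CPM in starved libraries. The PTPRC peak with the smallest p (chr1:198657866-198658117) had 1.41, 1.17, 0.926 and 0.730 CPM in complete libraries. In starved replicates 1, 2 and 4 it had 5.76, 6.46 and 4.64 CPM, but 0.802 CPM in replicate 3, within the range of complete medium. The interferon-induced gene IFIT2 showed the same arrangement, with a sum of 8.44 to 8.97 CPM in complete libraries and 19.0, 16.3, 6.82 and 19.0 CPM in starved ones (-0.99, SE 0.15). At this peak and at IFIT2, starved replicates 1, 2 and 4 lay above all complete libraries and replicate 3 below their highest. In the PTPRC sum replicate 3 (20.05 CPM) also lay above the highest complete library (18.16 CPM). Of 17 interferon genes 3 were lower, with RIGI (-0.43, SE 0.11) and IFIT3 beside IFIT2.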

How the data were processed

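The authors deposited whole-number counts per peak for 24 ATAC-seq libraries of T47D cells in 1 common set of 189403 peaks (hg38). Per the submitters' processing notes, cutadapt 1.8.1, Bowtie2 2.4.4 and SAMtools 1.9 were used. How peaks were called and counted, and whether duplicates were removed or Tn5 ends shifted, is not given in the sources used here. Members and gene lists were chosen with earlier results of these data known.

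A single model with 6 group means was fitted to all 24 libraries in edgeR 4.0.16 under R 4.3.3, after filterByExpr (minimum count 10, minimum total 15) and TMM scaling. The contrast of complete minus starved vehicle was tested two-sided with the quasi-likelihood F-test (legacy=FALSE, robust=TRUE) and Benjamini-Hochberg adjustment at 0.05. CPM use TMM-scaled totals, with a prior count of 2 in log2 values. Each SE was obtained by dividing the absolute log2 fold change by the square root of F. Gene sums cover 19884 protein-coding genes of a RefSeq table on GRCh38.p14 with 10 kb flanks. Another 172 genes on alternate or unplaced scaffolds were left out. Peak distances and start windows (15843 starts, none on chromosome 8) come from the same build. Peak positions are as deposited, and their first base may be counted from 0 or 1. Of 463 listed genes, 461 matched by symbol. The other two are older symbols of genes listed under their current names.

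Named peaks are the 10 largest called changes in each direction among those above median abundance whose groups did not overlap, over all peaks and over start windows. Named genes are the 10 largest sums in each direction with at least 5 peaks and no overlap, the 10 with the largest excess of peaks called one way, and up to 5 per list and direction by p, and ESR1, PGR and NR3C1 in any case. Some items under this rule are not reported here. Other genes given as not called were chosen after their values were seen. Marker checks used the strongest peak within 1 kb of the gene, since the start table is incomplete. Other scalings (RLE, total counts, loess offsets from limma 3.58.1), filters, flanks, models, DESeq2 1.42.0 and leaving out libraries were run as alternatives. The pipeline was tested on simulated counts. Vehicle libraries of one group differed beyond counting noise: chi-square values of the 12 within-group pairs were 1.70 to 2.34 times their degrees of freedom.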

Additional observations from a re-analysis of the deposited data

Results flagged for a closer look

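In 16 of 304 groups of 4 libraries examined for the features named, 1 library lay far from the other 3 by Dixon's criterion for 4 values. Chance gives this in about 1 in 20 groups.

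Among peaks, starved replicate 4 had 1.27 CPM at the PROM1 peak (others 0.231 to 0.401), 0.091 CPM at the KCNU1 peak (others 0) and 1.46 CPM at the BPIFB1 start (others 1.99 to 2.07). Complete replicate 4 had 0.146 CPM at the SLC41A2 peak (others 0.757 to 0.823). At the RARA peak complete replicate 1 had 96.9 CPM (others 86.0 to 87.05), and at the E2F2 peak complete replicate 2 had 11.7 CPM (others 13.7 to 14.1). Starved replicate 2 had 4.72 CPM at the XBP1 peak (others 1.18 to 1.604). The MLPH peak had such a library in both groups, with 33.5 CPM in complete replicate 1 (others 28.2 to 29.0) and 3.69 CPM in starved replicate 1 (others 5.10 to 5.37).

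Among gene sums, the shallow starved replicate 3 was lowest for THRB (139.5 CPM, others 152.5 to 155), WIPI1 (104 CPM, others 134 to 138) and PFKFB3 (279.8 CPM, others 301.4 to 304). Starved replicate 2 was highest for NR3C1 (74.6 CPM, others 65.8 to 67.0). In complete medium, replicate 3 was highest for MAML2 (215 CPM, others 202 to 204.5), replicate 1 for PTPRC (18.2 CPM, others 15.6 to 15.99) and replicate 2 for ALDH1A3 (61.9 CPM, others 59.4 to 59.8).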

How the results depend on the processing

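Leaving out 1 library at a time gave 9130 to 12663 peaks higher and 12247 to 15500 lower in complete medium, and 1061 to 1459 genes higher and 790 to 1256 lower. Fits within replicates 3 and 4 gave 5301 peaks higher and 6655 lower, and 707 genes higher and 379 lower. Within replicates 1 and 2, 969 genes were higher. Without complete replicates 3 and 4, 9320 peaks were lower, 766 genes higher and 692 lower. These fits have fewer libraries. With only features above the median abundance, so fewer were tested, 9842 peaks were lower, 831 genes higher and 586 lower. With TMM factors of the gene sums 1845 genes were lower, where the cause was not tested. Falls made up 43.8% of gene calls in the reported fit, 55.8% with RLE factors, 56.6% with DESeq2 and 54.8% with TMM factors of the gene sums. Every other count of peaks or genes stayed within 1.5 times the reported one.

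With the replicate block 13859 peaks were higher and 17079 lower, and 1741 genes higher and 1304 lower, and none of the 149 called features named lost its call. The labels give only a number, and deviations of libraries with the same number correlated at -0.015 to 0.113, so the numbers were not taken as pairs. Of those 149 features, 100 kept their call in all alternatives run, 21 lost it without complete replicates 3 and 4 and 33 within replicates 3 and 4. Directions turned for TRPC6 with no flank (-0.0766), and with a 50 kb flank for KRT17 (0.0291) and TP63 (0.0466). Among genes not called, TFF1 turned with no flank (-0.0414) and took -0.0403 to 0.457 with 1 library left out, and CCND1 turned with no flank (-0.0165). Depth limits low peaks most in starved replicate 3, where 12.96% of peaks had no count.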
